A study of Mus musculus with 38 samples.

Results

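A set of 10 SOX genes was examined: Sox2, Sox4, Sox5, Sox6, Sox7, Sox8, Sox13, Sox15, Sox18 and Sox21. They were chosen by name as members of the family of SOX9, and they are 10 of 21938 protein-coding genes of the annotation. Each gene was represented by a window of its gene body with 50 kb on both sides, and every called interval that overlapped that window by at least 1 bp was counted. No 2 of the windows overlapped. The study induced SOX9 in epidermal stem cells (EpdSCs) of adult mouse skin and mapped 2 histone marks with MINT-ChIP, in which barcoded chromatin samples are pooled before immunoprecipitation. The skin cells came from male K14rtTA;TRE-myc-Sox9 mice, in which a keratin 14 promoter drives the DOX-dependent activator, so that transgene expression is limited to keratin 14-positive cells and their progeny. DOX was given from P21, and cells were sorted before DOX (D0) and at 1, 2 and 6 weeks of DOX (W1, W2, W6) as CD31, CD45, CD117 and CD140a negative, CD49f high, CD34 negative and Ly6A high. The W12 cells came from newborn skin of this genotype grafted onto female Nude hosts, with DOX from 21 days after grafting, so that graft and time cannot be told apart. Cultured EpdSCs came from newborn male Krt14-rtTA pups and carried lentiviral TRE MYC-SOX9 as WT, without the DNA-binding HMG box (ΔHMG) or without the transactivation domain (ΔTA). These 3 were given DOX, and the no DOX list is named for the WT construct.

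SOX proteins bind DNA through an HMG box, recognise a short core such as ACAAAG and bend the helix. The family is split into groups by the sequence of that box. SOXB1, SOXC, SOXE and SOXF proteins carry an activation domain, SOXB2 proteins such as SOX21 are mostly repressive, and SOXD proteins (SOX5, SOX6 and SOX13) have no activation or repression domain of their own and pair through a coiled coil. SOX5 and SOX6 are best known for acting with SOX9 in cartilage. H3K4me1 marks primed and active enhancers, and H3K27ac marks active enhancers and promoters.

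Each skin mark had 5 pooled lists and the culture had 4 pooled H3K4me1 lists. Every value below is therefore 1 value per list, with no replicate error and no test between conditions. The skin lists held 69439 to 87287 H3K4me1 domains and 29081 to 33985 H3K27ac peaks, and the culture lists held 110589 to 123338 H3K4me1 domains. For 82.3% to 95.9% of H3K27ac peaks the deposited fold, after scaling by the background of its list, came out as a whole number of fragments at the summit (within 0.002). That background was 0.501, 0.299, 0.425, 0.677 and 0.412 from D0 to W12, so folds of different lists are not directly comparable. Promoter folds of all 6 epidermal stem cell markers were lower at W1 than at D0, as at Krt14 (14.6 against 44.6). The smallest such pileup was 3 fragments at W1, 4 at D0, W2 and W12, and 5 at W6, so weak acetylation below these heights could not be seen. W12 stood apart with a median peak width of 476 bp against 635 to 821 bp in the other 4 lists. Of 6 epidermal stem cell markers, 6 had a promoter H3K27ac peak in every list, and no promoter peak was called at 3 immune, 4 fibroblast or 3 Merkel cell markers in any list. Endothelial markers had 0, 1, 0, 1 and 1 of 4 promoters with a peak in the 5 lists in order of time, melanocyte markers 1, 2, 1, 0 and 0 of 4, hair follicle stem cell markers 2, 2, 3, 2 and 0 of 5, and suprabasal markers 1 of 2 in every list. In sorted, pooled cells, fewer cells with a mark and less mark per cell cannot be told apart.

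The members did not move together. Over the 4 skin lists with DOX, the Sox6 window had the largest reduction of H3K4me1 among the 10, from 40.0% of the window at D0 to 9.73% at W2, while the Sox13 window went the other way, from 12.4% to 35.2%. The remaining 8 windows stayed within 2-fold of D0 at every time. In culture, WT SOX9 was accompanied by more H3K4me1 at Sox6, Sox13 and Sox8, and neither ΔHMG nor ΔTA reached a 2-fold difference at any of the 10.

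**Figure D1:**
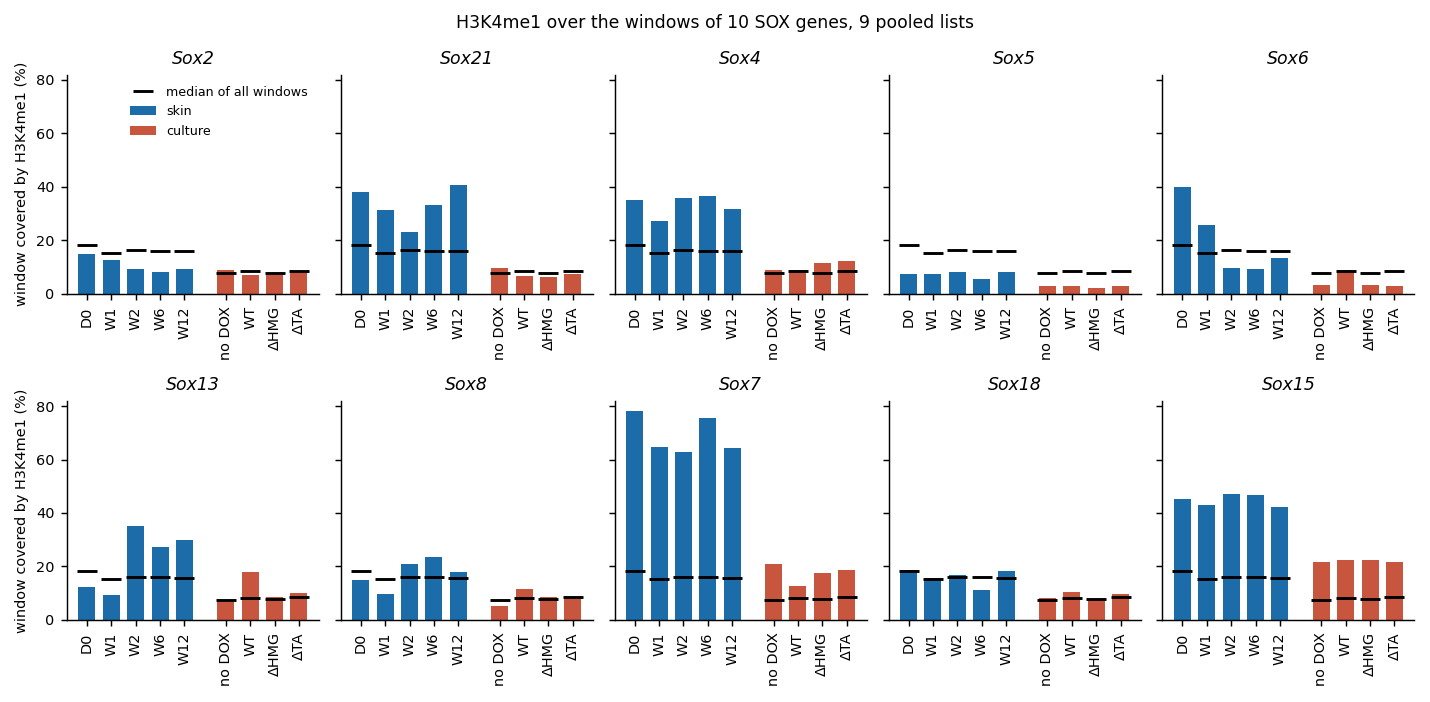
Bars give the percent of each gene's window (gene body with 50 kb on both sides) covered by H3K4me1 domains in the 5 skin lists and the 4 culture lists, 1 pooled list per bar and hence no error bars. Black dashes give the median over 21938 protein-coding gene windows of that list. Sox6 drops from 40.0% to 9.73% in skin and is highest with WT SOX9 in culture. Sox13 is higher from W2 on, and Sox4, Sox7 and Sox15 stay above the median throughout.

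Window calls used the ratio of covered bases to D0, after adding 500 bp to both, with 2-fold as the limit. For H3K4me1, no member passed the limit at W1, when 0.688% of all 21938 windows were 2-fold higher and 5.19% were 2-fold lower. At W2, 1 member was higher (Sox13) and 1 was lower (Sox6), beside 3.69% and 6.83% of all windows. At W6 it was again Sox13 that was higher and Sox6 that was lower, beside 3.13% and 5.97%. At W12 they were again Sox13 and Sox6, beside 3.15% and 6.70%. With 10 members, 1 in either direction is near those background shares, so the count of members called is not in itself a result about the family. Windows of neighbouring genes overlap, and the background shares are descriptions of these lists.

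Of single domains, 43 of the 162 D0 domains in the 10 windows had no counterpart at W1 (26.5%, 95% Clopper-Pearson interval 19.9 to 34, counting error only), against 27.8% of all D0 domains. At W2 this was 80 of 162 (49.4%, 41.4 to 57.3) against 32.4%, at W6 61 (37.7%, 30.2 to 45.6) against 26.6%, and at W12 58 (35.8%, 28.4 to 43.7) against 31.2%. The interval lay above the genome-wide share at W2 and W6 alone. Sox6 held 57 of the 162 domains, and without its window the share lost was 39.0% at W2, 24.8% at W6 and 24.8% at W12 (chosen after the values were seen). Newly called domains were 5 of 128 at W1 (3.91%, 1.28 to 8.88) against 5.96% of all W1 domains, 19 of 98 at W2 (19.4%, 12.1 to 28.6) against 20.0%, 16 of 116 at W6 (13.8%, 8.09 to 21.4) against 17.1%, and 20 of 126 at W12 (15.9%, 9.97 to 23.4) against 15.6%. Gains at the SOX genes were thus close to the genome-wide share at each time.

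Sox6 (ENSMUSG00000051910, GRCm38 chr7:115470872-116038796, minus strand) is a 568 kb gene whose product, an SOXD protein, pairs with SOX5 in chondrocytes and acts in erythroid and oligodendrocyte development. Its window covered 668 kb and held 2 other coding genes, 1110004F10Rik and Gm4353. At D0, 57 H3K4me1 domains covered 267200 bp of it, and at W1, W2, W6 and W12 the covered bases were 170400, 65000, 61200 and 89800. All 4 later lists were thus below D0. The log2 ratios were -0.65, -2.03, -2.12 and -1.57, and at W2 only 419 of 21938 windows had a lower ratio. Counted in bases rather than as a ratio, 1 window lost more than Sox6 at W2, 1 at W6 and 2 at W12, although a long gene has more bases to lose.

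The reduction was spread over the Sox6 gene rather than sitting at one place. Within the gene body the covered share went from 41.8% before DOX to 27.9, 10.4, 8.94 and 12.9% in the 4 later lists. Over the 50 kb downstream it was 46.1, 15.7, 7.60, 12.8 and 25.2%, and over the 50 kb upstream it was 14, 7.61, 4.81, 8.01 and 7.61%. The order of D0 above W1 above W2 held in all 3 segments. Of the 57 D0 domains, 16 had a counterpart in all 4 later lists and 15 in none. By W2, 39 had no counterpart (68.4%, beside 32.4% of all D0 domains), and 21 of these had still been called at W1. Of those 39, 5 overlapped a domain at W6 and 8 overlapped one at W12. The 39 had a median width of 2600 bp, against 5700 bp for the D0 domains that were kept at W2, and 3 of the 39 overlapped a D0 H3K27ac peak against 6 of the kept ones. No domain at W1, W2 or W6 was absent from D0, and 1 of 31 at W12 was. Of all domains of those lists, 5.96, 20.0, 17.1 and 15.6% were absent from D0.

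**Figure D2:**
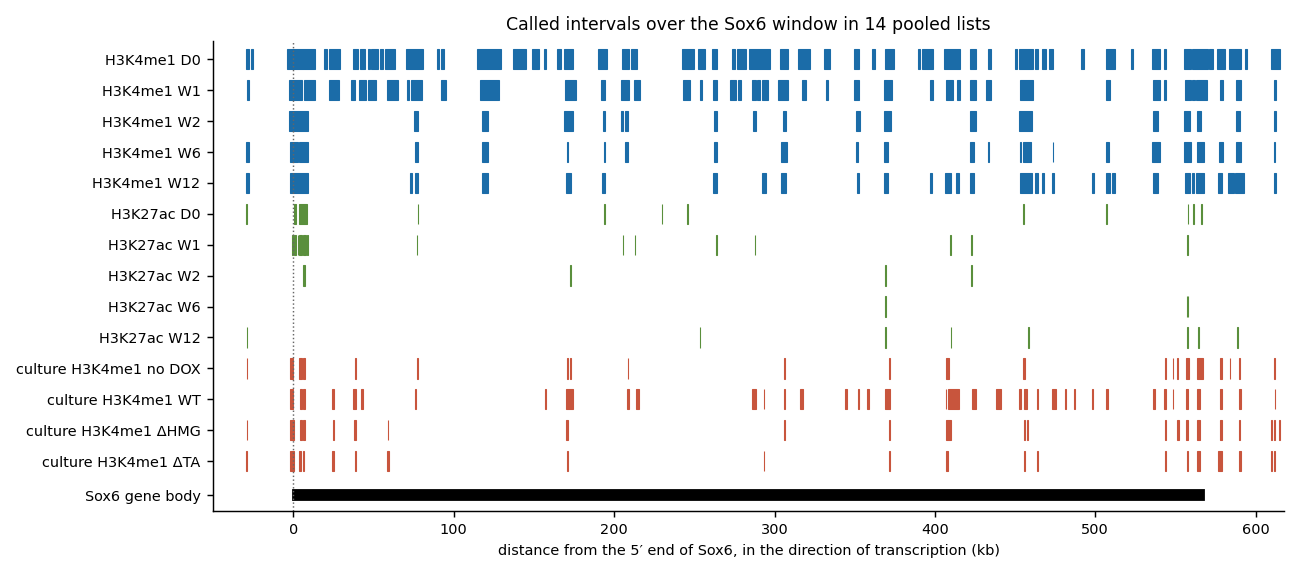
Each row is 1 of the 14 pooled lists and each block is a called interval, placed by its distance in kb from the 5′ end of Sox6 along the direction of transcription, with the gene body in black. Blue blocks (skin H3K4me1) thin out between D0 and W2 across the gene but remain at the 5′ end, green blocks (H3K27ac) at the 5′ end are missing at W6 and W12, and red blocks (culture H3K4me1) are most numerous with WT SOX9 (39 against 22, 22 and 20).

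H3K27ac at Sox6 was lower from W2 as well. The window held 12 peaks before DOX and 14, 4, 3 and 8 in the later lists, which covered 1.71, 1.66, 0.399, 0.150 and 0.702% of it. D0 and W1 were alike and the 3 later lists were lower, with log2 ratios to D0 of -0.04, -1.91, -2.98 and -1.2. At W6 only 22 of 21938 windows had a lower ratio. When the peaks of the 5 lists were joined where they overlapped, they formed 27 regions in the Sox6 window. Of these, none was present in all 5 lists, 20 were present in 1 list and 16 were present in no list after W1. The 10 windows together had 10, 55 and 24 such regions of 90, and no genome-wide share is given here. The strongest Sox6 region lies within the first 10 kb of the gene and overlaps an annotated start site of Sox6. It had a fold enrichment of 13.3 at D0, 13.9 at W1 and 6.32 at W2, with no peak at W6 or W12. Its summit heights were 19 fragments at D0, 17 at W1 and 8 at W2, against the smallest called heights of 5 at W6 and 4 at W12. Peaks within 1000 bp of any Sox6 start site numbered 3, 5, 1, 0 and 0 from D0 to W12, whereas an H3K4me1 domain was called at the 5′ end of the gene in every list. Of the 27 Sox6 regions, 6 had no peak before W2, of which 1 was called at W2 alone (fold 5.61), 4 at W12 alone (3.54 to 5.67) and 1 in all 3 later lists. At chr7:115669435-115669938 there was no peak at D0 or W1, and the fold was 6.32 at W2 (8 fragments), 7.75 at W6 and 4.25 at W12.

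The Sox6 sequences below belong to peaks and start sites named here. They are the 300 bases around the summit of the intronic peak first called at W2 (chr7:115669492-115669791) and of 1 of the 2 D0-only peaks with the highest such fold, 5.33 (chr7:115583166-115583465), all read on the plus strand of GRCm38.p6 and free of annotated exons. With them are 250 bases upstream of RefSeq start sites on the minus strand, for the outermost one (chr7:116038745-116038994) and for the one inside the strongest region (chr7:116031048-116031297). Capitals mark matches on either strand to the SOX letters ACAAAG and their variant ACAATG, to the AP1 letters TGANTCA, to the GATA letters AGATAA and to the RUNX letters TGTGGT. Both summit windows hold none of these letters, and each upstream stretch holds 1 ACAAAG.
Sox6 W2 intronic peak: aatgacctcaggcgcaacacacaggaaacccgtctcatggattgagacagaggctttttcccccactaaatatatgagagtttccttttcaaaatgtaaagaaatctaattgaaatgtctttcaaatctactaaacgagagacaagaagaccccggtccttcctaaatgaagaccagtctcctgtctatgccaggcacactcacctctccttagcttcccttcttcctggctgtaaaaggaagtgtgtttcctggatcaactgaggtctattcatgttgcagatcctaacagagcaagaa
Sox6 D0-only peak: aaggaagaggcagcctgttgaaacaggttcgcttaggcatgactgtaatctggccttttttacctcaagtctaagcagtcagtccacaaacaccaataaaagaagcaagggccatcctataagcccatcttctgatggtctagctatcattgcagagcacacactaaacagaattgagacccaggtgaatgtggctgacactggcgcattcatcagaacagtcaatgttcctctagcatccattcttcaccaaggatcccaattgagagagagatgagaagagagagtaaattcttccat
Sox6 outermost promoter: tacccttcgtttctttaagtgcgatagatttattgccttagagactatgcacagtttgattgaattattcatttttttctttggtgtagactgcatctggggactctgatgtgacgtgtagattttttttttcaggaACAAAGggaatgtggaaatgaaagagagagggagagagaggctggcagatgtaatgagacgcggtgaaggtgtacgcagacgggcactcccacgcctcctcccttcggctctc
Sox6 inner promoter: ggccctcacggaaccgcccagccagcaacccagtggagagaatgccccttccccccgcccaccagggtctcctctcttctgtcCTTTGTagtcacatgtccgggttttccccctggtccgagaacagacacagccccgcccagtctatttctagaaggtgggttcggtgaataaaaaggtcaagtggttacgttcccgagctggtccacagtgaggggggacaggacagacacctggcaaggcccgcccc

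In culture the Sox6 window behaved differently. H3K4me1 covered 3.13% of it without DOX, 8.97% with WT SOX9, 3.03% with ΔHMG and 2.66% with ΔTA, in 22, 39, 22 and 20 domains. WT stood alone above no DOX, with a log2 ratio of 1.5 against -0.05 for ΔHMG and -0.23 for ΔTA. Only 452 of 21938 windows had a higher ratio with WT, and 5 gained more bases. Of the 39 WT domains at Sox6, 21 had no counterpart without DOX (53.8%, beside 29.1% of all WT domains). Of these 21, 18 had none with either mutant, beside 70.9% of all 33788 domains gained with WT. The additional domains lay in the gene body, where the covered share was 9.76% with WT against 2.63% without DOX, while both flanks were lower with WT (3.64 against 4.49% upstream and 5.35 against 7.43% downstream). Of the 21, 15 overlapped a skin D0 domain (29.9% of all gained WT domains did) and 8 overlapped a skin domain that was lost by W2 (5.37%). At D0 the Sox6 window also had more skin H3K4me1 to overlap than most (40.0% against a median of 18.3%). None overlapped a domain that skin gained by W2, as Sox6 gained none. The most enriched of them, chr7:115745054-115745352, had a fold of 6.34 and was also called with ΔTA.

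Sox13 (ENSMUSG00000070643, chr1:133382303-133424377, minus strand) is the third SOXD gene and is known for its part in the development of IL-17-producing γδ T cells. Its window of 142 kb also holds Ren1 and Etnk2. H3K4me1 covered 12.4% of the Sox13 window before DOX and then 9.43, 35.2, 27.3 and 29.8% in the later lists. D0 and W1 were low and the other 3 lists were high. The log2 ratios were -0.38, 1.48, 1.12 and 1.24, and 451 of 21938 windows were higher at W2. The W12 call was lost (log2 0.99) when the weaker domains of every list were left out. The increase lay in the gene body (13.1, 17.3, 48.5, 52.0 and 61.1% from D0 to W12) and in the 50 kb upstream (1.2, 0, 41.6, 17.6 and 14.4%), whereas the downstream flank, where Etnk2 lies, had 23.0, 12.2, 17.6, 16.2 and 19%. At W2 a single domain of 15600 bp, chr1:133408001-133423600, overlapped 3 domains of D0. Of 10 W2 domains, 5 had no counterpart at D0, beside 20.0% of all W2 domains. One of those 5 was an intronic domain of 4800 bp at chr1:133397801-133402600, which also had a counterpart at W6 and W12. The order of W2 above D0 held in the gene body and upstream alone.

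H3K27ac was sparse at Sox13, with 1, 0, 1, 3 and 2 peaks from D0 to W12. It covered 0.208, 0, 0.371, 1.78 and 0.491% of the window, and the W6 ratio passed the limit (log2 1.93, against 0.37 at W2 and 0.59 at W12), but not when the weaker peaks of every list were left out (log2 0.00). Most of the W6 bases lay 60.6 kb from the Sox13 start site, at Etnk2. A peak at the Sox13 promoter itself was called at W6 (fold 5.96, 9 fragments) and at W12 (fold 4.96, 6 fragments), and at no earlier time.

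In culture, H3K4me1 covered 6.56% of the Sox13 window without DOX, 17.9% with WT SOX9, 8.41% with ΔHMG and 10.2% with ΔTA. All 3 were above no DOX, and WT was the highest (log2 ratios 1.40, 0.34 and 0.61). As in skin, the additional bases lay in the gene body, which went from 7.27% to 31.4% with WT against 10.7% with ΔHMG and 9.81% with ΔTA, and upstream (6.47 to 17.8% with WT). Of the 18 WT domains, 10 were absent without DOX (55.6%, beside 29.1% of all WT domains). Of these 10, 6 were absent from both mutants (70.9% of all gained WT domains), and 6 overlapped a skin domain of W2 (36.4%). The intronic Sox13 domain that skin gained by W2 had a WT counterpart of 3943 bp at chr1:133398054-133401996 and a ΔHMG one of 507 bp, and none without DOX or with ΔTA. Sox6 and Sox13 were hence both higher with WT in culture, while in skin the 2 windows were opposite from W2 on. At W1 both windows were below D0 by less than 2-fold (log2 -0.65 and -0.38), as was the median of all windows (-0.19). The Sox13 gene body alone was above D0 at W1.

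**Figure D3:**
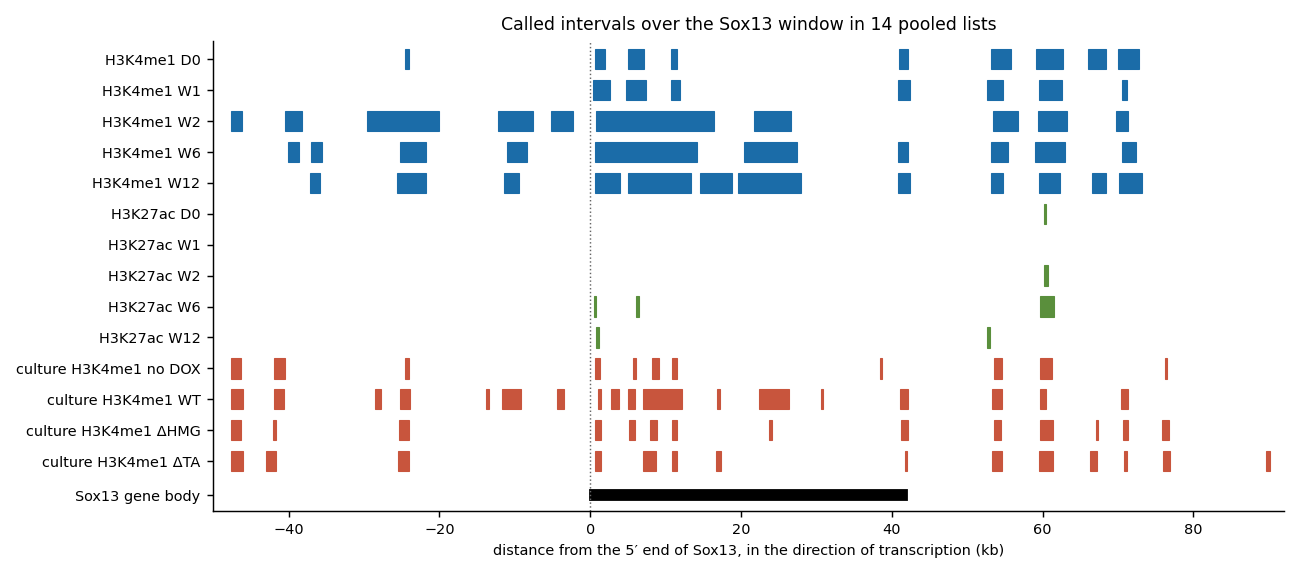
Each row is 1 of the 14 pooled lists and each block is a called interval, placed by its distance in kb from the 5′ end of Sox13 along the direction of transcription, with the gene body in black. Blue blocks (skin H3K4me1) are wider and more numerous around and upstream of the 5′ end at W2, W6 and W12 than at D0 and W1, and red blocks (culture H3K4me1) fill part of the same stretch with WT SOX9, while green blocks (H3K27ac) are few.

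Sox5 (ENSMUSG00000041540, chr6:143828425-144781977, minus strand), the partner of Sox6 in cartilage, is the longest of the 10 genes (954 kb) and has no other coding gene in its window. H3K4me1 covered 7.16% of it at D0 and 7.19, 7.99, 5.62 and 8.24% at W1, W2, W6 and W12, in each case less than the median of all windows (15.1 to 18.3%). Coverage did not pass 2-fold, yet the domains exchanged, as 17 of 34 D0 domains were lost and 11 of 26 W2 domains were new by W2. H3K27ac peaks numbered 2, 2, 5, 3 and 10, and the covered share was 0.0814, 0.0807, 0.249, 0.0812 and 0.453%. W2 and W12 passed the 2-fold limit (log2 1.2 and 1.96). Of the 18 Sox5 regions, 16 were called in 1 list and 9 of those in W12 alone. The 10 windows together had 55 of 90 regions in 1 list and 17 in W12 alone. No genome-wide share of such regions is given here, but 56.2% of all W12 peaks had no counterpart at D0. One intronic region, chr6:144020351-144021412, was absent at D0 and called in the 4 later lists with folds of 3.85, 8.42, 4.17 and 5.67. Its W6 peak overlapped neither the W1 nor the W2 peak, so these folds do not follow a single lasting peak. In culture, H3K4me1 covered 2.67% without DOX and 2.85, 1.91 and 2.75% with WT, ΔHMG and ΔTA. Of 30 WT domains, 16 were new (53.3%, beside 29.1% of all WT domains). Of 31 domains without DOX, 16 were lost with WT (51.6%, beside 25.1% of all). Of the 16 new WT domains, 15 were absent from both mutants, beside the 70.9% of all gained WT domains.

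The Sox5 summits at W2 (chr6:144020571-144020870) and W6 (chr6:144042001-144042300) are given because they were the strongest Sox5 peaks of those lists, were absent at D0 and were among the few summit windows with SOX letters. The capitals and the strand are as above, and neither window overlaps an exon.
Sox5 W2 intronic peak: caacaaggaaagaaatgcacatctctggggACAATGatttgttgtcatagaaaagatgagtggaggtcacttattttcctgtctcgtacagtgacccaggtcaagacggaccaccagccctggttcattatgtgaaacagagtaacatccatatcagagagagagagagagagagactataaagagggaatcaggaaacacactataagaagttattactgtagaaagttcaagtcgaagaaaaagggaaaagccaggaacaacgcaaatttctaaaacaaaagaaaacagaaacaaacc
Sox5 W6 intronic peak: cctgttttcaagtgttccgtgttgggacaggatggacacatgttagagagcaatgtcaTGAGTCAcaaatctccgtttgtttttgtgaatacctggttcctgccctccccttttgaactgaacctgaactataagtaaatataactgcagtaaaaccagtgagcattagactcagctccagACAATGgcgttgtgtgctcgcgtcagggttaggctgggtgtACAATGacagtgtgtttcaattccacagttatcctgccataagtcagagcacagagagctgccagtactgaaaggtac

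Sox2 (ENSMUSG00000074637, chr3:34650405-34652461, plus strand), the SOXB1 gene known for pluripotency and neural progenitors and, in skin, for dermal papillae, had no H3K27ac peak in its window in any of the 5 lists. It was the only member without one. H3K4me1 covered 14.9, 12.5, 9.01, 8.23 and 9.21% from D0 to W12, below the median of all windows each time, in 6, 4, 2, 3 and 3 domains. The 4 later lists were below D0 by less than 2-fold (log2 -0.24, -0.69, -0.82 and -0.67). A domain at the Sox2 promoter was nevertheless called in all 5 skin and all 4 culture lists. In culture the coverage was 8.82% without DOX and 7.11, 6.76 and 7.56% with WT, ΔHMG and ΔTA.

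Sox21 (ENSMUSG00000061517, chr14:118233232-118237030, minus strand), a SOXB2 gene needed for the cuticle of the hair shaft, was acetylated in every list. A peak lay within 1000 bp of its start site in all 5, with folds of 14.7, 10.8, 9.82, 16.1 and 7.08 and summits of 21, 13, 13, 26 and 9 fragments from D0 to W12. D0 and W6 were the highest and W12 the lowest. The first 4 overlapped the start site, and the W12 peak lay 1000 bp inside the gene. The covered share was 7.12, 6.86, 4.69, 4.62 and 2.0%, and W12 alone passed the limit (log2 -1.62), at a time when 13.7% of all windows were 2-fold lower and peaks were narrower. H3K4me1 at Sox21 covered 38.1, 31.4, 22.9, 33.1 and 40.8%, lowest at W2 and back above D0 at W12. In culture it covered 9.54% without DOX and 6.46, 6.03 and 7.33% with the 3 variants.

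Sox4 (ENSMUSG00000076431, chr13:28948919-28953713, minus strand), a SOXC gene that supports the survival and growth of many progenitors, was marked throughout. H3K4me1 covered 35.0, 27.1, 35.6, 36.7 and 31.5% of its window, and H3K27ac 3.89, 3.51, 4.88, 4.72 and 1.40%. W12 was lowest for H3K27ac (log2 -1.22), in the list with the narrower peaks, and the ratio ran from -2.42 to -0.10 over 5 other settings, with the call kept in 3. The peak nearest the Sox4 start site had folds of 7.33, 7.70, 4.91, 8.35 and 4.96, with W2 and W12 the lowest, and a separate W2 peak 998 bp inside the gene had 7.72. There were 6 Sox4 regions, all with H3K4me1 in every skin list, and 1 of them was called in all 5 H3K27ac lists. A downstream region at chr13:28930604-28932147 was called from D0 to W6 (8.66, 7.70, 5.61 and 6.23) and not at W12. Its W1 summit window, chr13:28931273-28931572 in the downstream flank, is given because it shared the highest Sox4 fold at W1 with the promoter peak and holds ACAATG on the minus strand.
Sox4 W1 downstream peak: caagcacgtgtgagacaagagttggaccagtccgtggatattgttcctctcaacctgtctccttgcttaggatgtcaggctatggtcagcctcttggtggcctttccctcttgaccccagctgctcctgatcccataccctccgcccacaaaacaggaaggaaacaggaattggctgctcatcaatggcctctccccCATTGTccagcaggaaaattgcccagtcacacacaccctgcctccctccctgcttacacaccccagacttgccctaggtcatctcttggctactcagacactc

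In culture, H3K4me1 at Sox4 covered 8.73% without DOX, 8.80% with WT, 11.4% with ΔHMG and 12.1% with ΔTA, and no domain touched its promoter in any of the 4 lists. The 2 mutants were the higher ones, by less than 2-fold.

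Sox8 (ENSMUSG00000024176, chr17:25565892-25570686, minus strand) is a SOXE gene, as Sox9 and Sox10 are, and shares roles with them in the testis and neural crest. H3K4me1 covered 14.9, 9.54, 20.8, 23.7 and 17.9% of its window from D0 to W12. The gene itself is 4.79 kb long and was covered by 18.5, 14.3, 100, 47.7 and 56.0%, so that the 3 later lists were above D0 in the gene body, whereas over the whole window no time passed 2-fold. The single H3K27ac region of the window, at D0, W1 and W6, overlapped the Lmf1 promoter, and none was called at the Sox8 promoter. In culture the window went from 5.13% without DOX to 11.7% with WT (log2 1.12), 8.43% with ΔHMG and 7.61% with ΔTA. The gene body had 7.76% without DOX, 35.9% with WT, 0% with ΔHMG and 9.59% with ΔTA.

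Sox7 (ENSMUSG00000063060, chr14:63943673-63950732, plus strand), a SOXF gene of the vascular endothelium, had the broadest H3K4me1 of the 10. It covered 78.1, 64.6, 62.9, 75.7 and 64.5% of the window, above at least 99.0% of all windows at each time. H3K27ac covered 12.1, 5.75, 7.81, 14.9 and 4.71% in 10, 7, 6, 15 and 6 peaks. D0 and W6 were high, and W1 and W12 passed the limit downwards (log2 -1.02 and -1.28). The W1 call was kept in 2 of 5 other settings and the W12 call in 3, and over the gene body alone the W1 ratio was 0.04. The Sox7 promoter peak did not track the covered share, with folds of 8.66 at D0, 10 at W1, none at W2, 16.7 at W6 (27 fragments) and 5.67 at W12. At W2 the strongest Sox7 peak lay instead in the downstream flank at chr14:63962181-63964317, with a fold of 10.5, where D0 had 5.33 and W6 had 7.75. Its summit window (chr14:63963224-63963523, plus strand) is given as the place of acetylation when the promoter peak was missing, and it holds none of the searched letters.
Sox7 W2 downstream peak: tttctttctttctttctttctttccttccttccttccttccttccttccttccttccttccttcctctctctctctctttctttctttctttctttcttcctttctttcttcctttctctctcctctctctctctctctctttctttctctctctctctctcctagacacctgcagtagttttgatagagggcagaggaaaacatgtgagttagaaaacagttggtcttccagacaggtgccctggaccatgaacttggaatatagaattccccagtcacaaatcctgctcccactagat

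Beside Sox7, the endothelial markers Pecam1, Cdh5, Kdr and Tek had a promoter peak at Tek alone at W1 (fold 3.85), at Pecam1 alone at W6 (4.77) and W12 (14.9), and at none of the 4 at D0 or W2, when Sox7 had 10 and 6 peaks in its window. Any part of endothelial cells in the later lists was not tested. Pinx1, 4930578I06Rik and Rp1l1 share the window, and the peak with the highest fold at W12 (7.79) lies 610 bp from an Rp1l1 start site. In culture, where H3K4me1 covered 20.8% without DOX, WT had 12.8%, ΔHMG 17.4% and ΔTA 18.5%. This was the lowest WT ratio of the 10 members (log2 -0.68) and did not reach 2-fold.

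Sox18 (ENSMUSG00000046470, chr2:181669836-181671640, minus strand), the SOXF gene mutated in ragged mice with coat and vessel defects, had no H3K27ac peak at its promoter in any list. The peaks in its window numbered 1, 1, 2, 2 and 1, and all but the W12 peak overlapped or adjoined start sites of Rgs19 or Tcea2. H3K4me1 covered 18.5, 15.5, 16.7, 11 and 18.3% of the window, lowest at W6 (log2 -0.72). In culture it covered 8.33% without DOX and 10.6, 7.01 and 9.72% with WT, ΔHMG and ΔTA. Neither mark passed 2-fold at any time.

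Sox15 (ENSMUSG00000041287, chr11:69655314-69656727, plus strand), the only SOXG gene, acts in muscle regeneration and trophoblast. Its H3K4me1 stayed close to D0, over 45.4, 43.0, 47.0, 46.8 and 42.2% of the window in skin and 21.8, 22.3, 22.3 and 21.8% in culture. The log2 ratios to D0 or no DOX ran from -0.10 to 0.05, while its H3K27ac share varied from 4.10% at W12 to 12.6% at W6. A peak at the Sox15 promoter was called in every list, with folds of 16.7, 5.39, 6.32, 15.5 and 9.21, highest at D0 and W6. Folds of different lists are not directly comparable, and whether this order is particular to Sox15 was not tested. Of 10 D0 domains at Sox15, 1 was lost at W1 and none in the 3 later lists. The shares lost of all D0 domains were 27.8, 32.4, 26.6 and 31.2% from W1 to W12. No domain of a later list was new at Sox15, beside 5.96, 20.0, 17.1 and 15.6% of all domains of those lists. The window holds 11 other coding genes, and its strongest peaks were at Eif4a1 at D0, W2 and W6 (34.7, 14 and 26.8) and at Mpdu1 at W1 and W12 (15.4 and 10.6).

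For H3K27ac the window calls and the single peaks were as follows. At W1, 0 members were 2-fold higher and Sox7 was lower, beside 4.62% and 4.27% of all windows. At W2, Sox5 was higher and Sox6 lower, beside 6.87% and 4.34%. At W6, Sox13 was higher and Sox6 lower, beside 7.07% and 3.74%. At W12, Sox5 was higher and Sox21, Sox4, Sox6 and Sox7 were lower, beside 6.63% and 13.7%. Sox6 was lower at each of the last 3 times, and no other member was called in 1 direction more often than that.

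**Figure D4:**
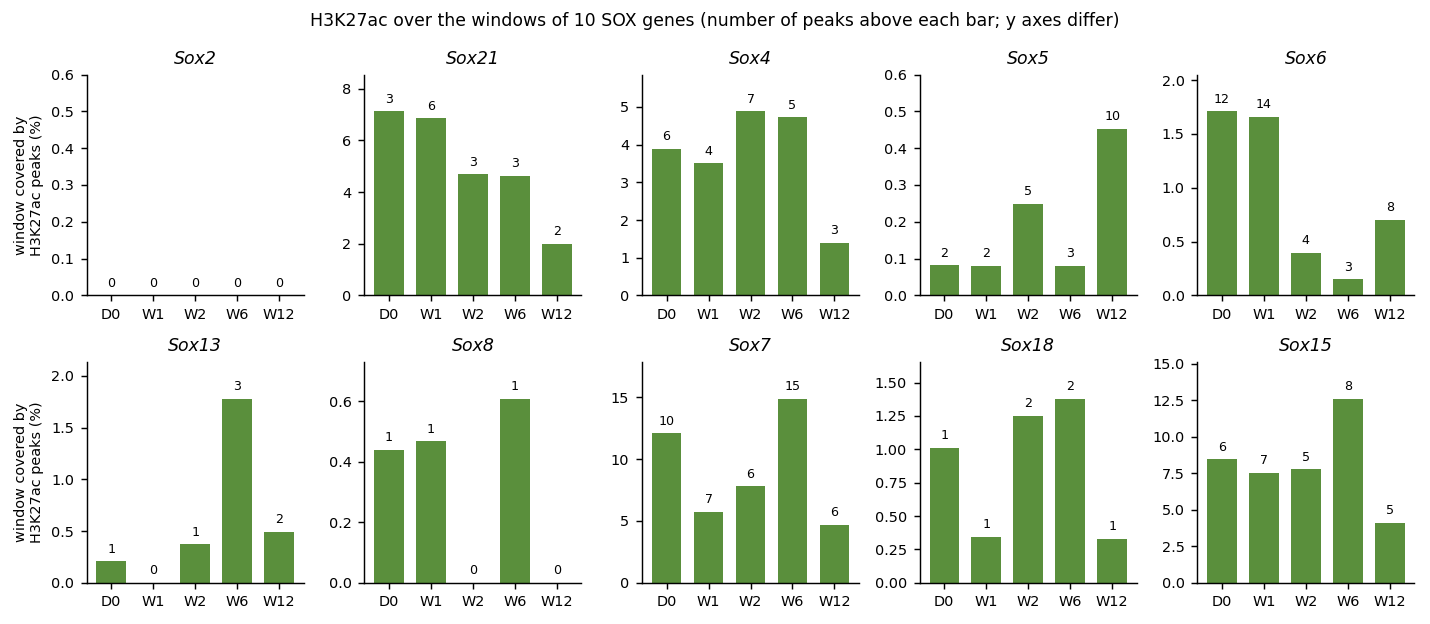
Bars give the percent of each gene's window covered by H3K27ac peaks in the 5 skin lists, 1 pooled list per bar and hence no error bars, with the number of peaks above each bar and a y axis of its own for each gene. Sox2 has no peak in any list, Sox6 falls from 12 and 14 peaks at D0 and W1 to 4 and 3 at W2 and W6, and Sox5 reaches 10 peaks at W12.

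Of the 42 D0 peaks in the 10 windows, 21 had no counterpart at W1 (50%, 95% Clopper-Pearson interval 34.2 to 65.8), beside 37.4% of all D0 peaks. At W2 it was 20 (47.6%, 32.0 to 63.6) beside 38.6%, at W6 16 (38.1%, 23.6 to 54.4) beside 37.8%, and at W12 28 (66.7%, 50.5 to 80.4) beside 53.7%. New peaks were 19 of 42 at W1 (45.2%, 29.8 to 61.3) beside 41.3% of all W1 peaks, 10 of 33 at W2 (30.3%, 15.6 to 48.7) beside 40.1%, 17 of 43 at W6 (39.5%, 25 to 55.6) beside 39.8%, and 22 of 37 at W12 (59.5%, 42.1 to 75.2) beside 56.2%. Every one of these 8 intervals included the genome-wide share. Sox6 carried 11 of the 20 peaks lost by W2, and without its window the share lost was 30% at W2 and 16.7% at W6. Joined across lists, the peaks of all 10 windows made 90 regions. Of these, 10 were present in all 5 lists, at Sox15 (4), Sox7 (3), Sox21 (2) and Sox4 (1), and 55 were present in 1 list. No genome-wide share of such regions is given here. All but 3 of the 90 overlapped an H3K4me1 domain in at least 1 skin list.

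At promoters, taken as 1000 bp on both sides of any annotated start site, an H3K27ac peak was present at 5 of 10 members at D0 (Sox4, Sox6, Sox7, Sox15 and Sox21), beside 44.5% of all genes. It was 5 at W1 (43.1% of all genes), 4 at W2 (44.1%), 5 at W6 (48.4%) and, in the last list, 6 (36.2%). The members with a peak changed. Sox6 had one up to W2 and not after, Sox7 lacked one at W2, Sox13 had one at W6 and W12, Sox5 had one at W12 (fold 3.54, 4 fragments), and Sox4, Sox15 and Sox21 had one throughout. Sox2, Sox8 and Sox18 had none at any time.

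In culture, 3 members were 2-fold higher with WT SOX9 (Sox6, Sox13 and Sox8) and none was lower, beside 5.07% and 2.17% of all windows. With ΔHMG no member passed the limit in either direction, beside 1.59% and 0.830%, and with ΔTA none did either, beside 4.54% and 0.811%. WT was the only variant with calls. Of single domains in the 10 windows, 59 of 154 were new with WT (38.3%, 95% Clopper-Pearson interval 30.6 to 46.5) beside 29.1% of all WT domains, 28 of 141 with ΔHMG (19.9%, 13.6 to 27.4) beside 19.3%, and 34 of 140 with ΔTA (24.3%, 17.4 to 32.2) beside 25.8%. Of the 135 domains without DOX, 37 were lost with WT (27.4%, 20.1 to 35.7) beside 25.1%, 23 with ΔHMG (17.0%, 11.1 to 24.5) beside 15.6%, and 27 with ΔTA (20%, 13.6 to 27.7) beside 17.5%. Only the interval for new WT domains lay above the genome-wide share. Without the Sox6 window the share of new WT domains was 33.0%. The 59 came mostly from the SOXD genes, with 21 at Sox6, 16 at Sox5 and 10 at Sox13.

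**Figure D5:**
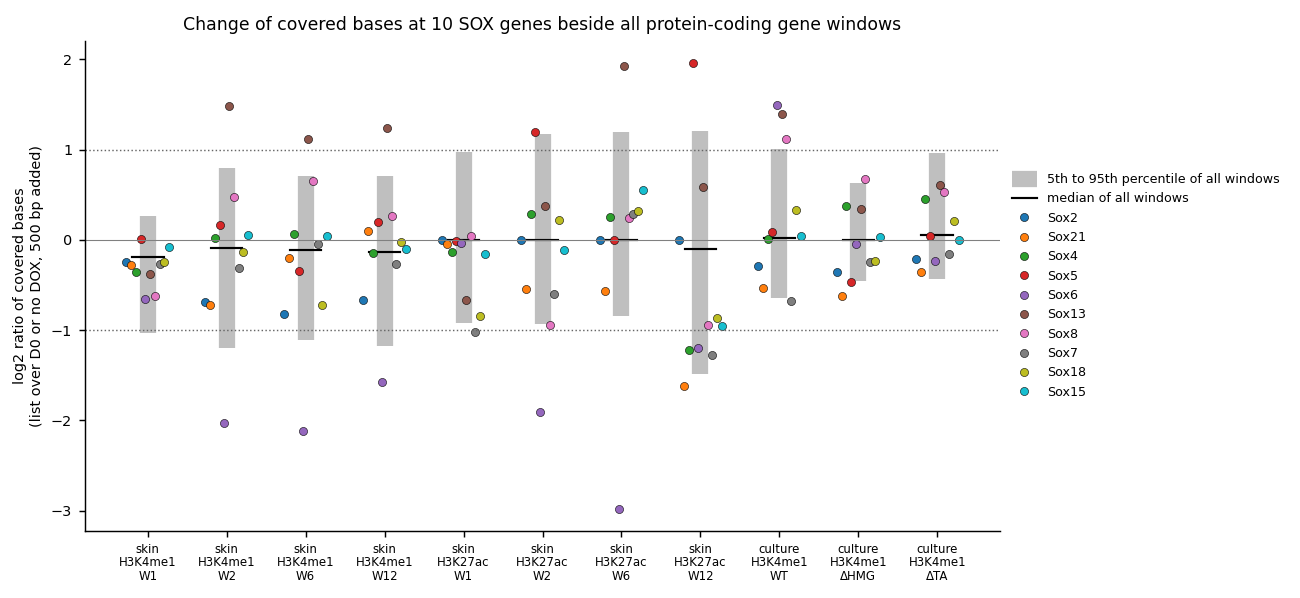
Points give the log2 ratio of covered bases (500 bp added) for each of the 10 genes in 11 comparisons, skin lists against D0 and culture lists against no DOX, with grey bars from the 5th to the 95th percentile and black lines at the median of 21938 protein-coding gene windows, and dotted lines at 2-fold. Sox6 lies below the grey bar for H3K4me1 at W2, W6 and W12 and above it in culture with WT SOX9, and Sox13 lies above it for H3K4me1 at W2, W6 and W12 and with WT.

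By set median, the other 10 genes of the family (Sox1, Sox3, Sox9, Sox10, Sox11, Sox12, Sox14, Sox17, Sox30 and Sry) carried less of both marks than the 10 members. Their median covered share was 9.16% for H3K4me1 at D0 against 26.8% for the members and 18.3% for all windows, and 4 of them had an H3K27ac peak in the window at D0 against 9 members. Single genes went the other way. At D0, Sox10 (34.7%) and Sox12 (29.7%) were above the members' median for H3K4me1. Sox9, Sox10 and Sox12 were above it for H3K27ac (3.86, 6.06 and 2.77% against 1.36%). Relative to D0, 0 of the 10 other genes were 2-fold higher for H3K4me1 at any time, and 3, 0, 1 and 2 were lower at W1, W2, W6 and W12. For H3K27ac, 0 were higher, and 2, 1, 0 and 1 were lower. In culture, 1 was higher and 1 lower with WT SOX9, 0 and 0 with ΔHMG, and 0 and 1 with ΔTA. None of those genes is called in the same direction at W2, W6 and W12 for H3K4me1, as Sox6 and Sox13 were.

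Over the 46 distinct summit windows of the strongest, D0-only and lasting peaks at the members, the SOX letters ACAAAG were found in 2 and their variant in 4, the AP1 letters in 2, the GATA letters in 0 and the RUNX letters in 5, counting both strands. Among all summit windows of the 5 lists these letters were in 20.7 to 22.9%, 11 to 13.2%, 8.45 to 9.34%, 10.7 to 13.0% and 18.0 to 19.7%. The end of ACAAAG can overlap the start of AGATAA, as in 1 Sox6 promoter. Many of the 46 come from the same region in different lists, so they are not independent, and letters in a window are not a binding site. RefSeq promoters of 300 bases were matched for 8 of 10 members, and the entries for Sox7 and Sox18 were missing. ACAAAG was in the promoter of Sox2 and Sox15 and of all but 1 of the Sox6 start sites. ACAATG was in that of Sox5 and of 2 Sox6 start sites. Of all 32851 RefSeq promoters, 18.7 and 12.6% held the first and the second.

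Likeness was measured over the 10 covered percents of skin, for the 3 members whose H3K27ac share varied most. Sox7, which varied by 10.2 percentage points, was closest to Pou3f1, Syngr2 and Hr (distances of 12.2, 12.8 and 13.3 points, against a median of 120 over all other windows). Sox15 varied by 8.48 points and was closest to Zfp707, Coq5 and Nmt1 (3.76, 3.87 and 5.16 points, median 66.1). Sox21 varied by 5.12 points and was closest to Tango6, Manba and Taf15 (5.74, 6.54 and 6.70 points, median 45.2). These are descriptions over 10 pooled lists.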

How the data were processed

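MINT-ChIP was measured in 38 samples of 16 groups, with high and low MNase digests, and W12 libraries share samples with the first W2 replicate. The authors demultiplexed reads by barcode, trimmed them with Skewer, aligned them to GRCm38/mm10 with Bowtie2 2.2.9, removed duplicates with Picard, merged replicates with SAMtools 1.9 and called epic2 H3K4me1 domains and MACS2 2.1.1 H3K27ac peaks. Caller settings, and the caller of the culture lists, are not given in the sources used here. Each culture condition was read from the name of its list, since both culture libraries hold all 4 conditions by barcode.

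The 14 deposited lists pool replicates, so no test between conditions was possible, and read depth per list is unknown. The epic2 lists hold a p-value for each domain. The peak lists deposited by the authors hold a score, a fold enrichment (a ratio over background), and −log10 p- and q-values. From the lists alone, intervals, covered bases and highest folds were computed for each gene body with 50 kb flanks. A gained interval overlapped none of the D0 or no DOX list by 1 bp, and a lost one was the reverse. Window ratios added 500 bp, and calls were at 2-fold. The background was 21938 protein-coding windows. Intervals of shares are exact Clopper-Pearson and cover counting error only, since neighbouring intervals are not independent. Set aside were 30 intervals outside the 21 main chromosomes, and the 14 barcode files were not used. Python 3.11.15, numpy 2.4.6, pandas 2.3.3, SciPy 1.17.1 and matplotlib 3.10.9 were used, and the scripts were tested on simulated intervals. The members and lists were chosen with earlier results of these data known. All 10 members were named. Picked for each, where present, were the H3K27ac peak of highest fold in each list, the strongest peak at D0 alone, the strongest peak absent at D0 and present at W2, W6 and W12, and the culture domain of highest fold gained with WT. Sox4 and Sox15 gained no culture domain with WT. Not all picked intervals are described here, and of the culture domains only that at Sox6 is. Other regions were named after their values were seen. The alternatives were a 50% overlap, intervals above the median evidence, lists of equal length, joining within 1000 bp, 10 kb or no flanks, 100 bp added, and promoters of 2500 bp. The sequence of 1 named Sox6 peak is not reported here.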

Additional observations from a re-analysis of the deposited data

Results flagged for a closer look

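The Sox6 window moved in opposite directions in skin and in culture. The log2 ratio of H3K4me1-covered bases to D0 was -0.65, -2.03, -2.12 and -1.57 from the first to the last DOX time, while WT SOX9 against no DOX in culture gave 1.5. Every list was a pool, so the difference between skin and culture was not tested, and age, sorting and transgene differ along with it, and the caller of the culture lists is not given in the sources used here.

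The Sox18 window was also below D0 at all 4 times, by less than 2-fold (log2 -0.24, -0.14, -0.72 and -0.02). In culture with WT it was above no DOX (0.33). The median of all windows was below D0 at the same times as well (log2 -0.19, -0.09, -0.11 and -0.14). The difference between skin and culture at Sox18 was not tested either, and 3 of the 5 Sox18 values lie within 0.25 of 0.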

How the results depend on the processing

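Of 550 log2 ratios of single windows recomputed under other settings, 500 kept their 2-fold call or lack of one and 49 changed it. The other 1 lost its call with the opposite sign (Sox7, H3K27ac at W1, 0.04 over the gene body alone). A kept call can still hide a large shift, as for Sox8 in culture with WT (1.12 to 3.07). The Sox6 H3K4me1 calls at W2, W6 and W12 and the Sox6, Sox13 and Sox8 culture calls with WT held in 5 of 5 settings. No paired analysis was possible because every list pools its replicates.

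Shares that moved were as follows, in percent. They were computed for the member windows alone. No share over all intervals was computed under these settings, and the genome-wide shares given above are not their counterpart. Above the median evidence, H3K4me1 domains gained were 12.1 at W1 and 7.84 at W12, H3K27ac peaks gained were 29.2 at W1 and 29.4 at W12, peaks lost were 31.8, 63.6 and 50 at W1, W2 and W12, culture domains gained were 59.7 with WT and 36.2 with ΔTA, and those lost were 58.3, 40.0 and 38.3 with WT, ΔHMG and ΔTA. With lists of equal length, H3K4me1 gained was 12.5 and lost 16.4 at W1, and lost 27.9 at W12. Over gene bodies alone, H3K4me1 lost at W6 was 48.9, H3K27ac gained was 50 at W2 and 58.3 at W6, lost was 66.7 at both, culture gained with WT was 53.8, and lost was 27.6 with ΔHMG and 31.0 with ΔTA. With 10 kb flanks, culture gained with WT was 49.0. Without the Sox6 window, chosen after seeing the data, H3K4me1 lost was 39.0, 24.8 and 24.8 at W2, W6 and W12, and H3K27ac lost was 30.0 and 16.7 at W2 and W6.

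Counts of members called also moved, and no share of all windows or promoters was computed under the other settings. Over gene bodies they were, for H3K4me1, 1 lower at W1 and 2, 2 and 3 higher at W2, W6 and W12; for H3K27ac, 0, 2 and 2 lower at W1, W2 and W12 and 2 higher at W6; and in culture 1 lower with each of WT, ΔHMG and ΔTA. With 10 kb flanks they were 2 higher at W2 and 2 lower at W6 for H3K4me1, 0, 2 and 2 lower at W1, W2 and W12 and 2 higher at W2 and W6 for H3K27ac, and 1 lower with ΔHMG and ΔTA. Above the median evidence they were 2 and 3 lower at W1 and W2 and 2 and 0 higher at W2 and W12 for H3K4me1, 0 and 3 lower at W1 and W2 and 0 higher at W6 for H3K27ac, and 3 and 4 lower with WT and ΔHMG and 1 higher with ΔTA. With 100 bp added, H3K27ac had 3, 2 and 7 lower at W1, W2 and W12 and 2 higher at W12, and with lists of equal length 2 were higher at W2. Members with a promoter interval above the median evidence were 3 for H3K27ac at W12 and 5 and 4 in culture without DOX and with WT. The cause was not tested.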
